A study of Mus musculus with 16 samples.

Results

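The genes described here are 32 targets of the transcription factor p53 and genes of the DNA damage response, given as a list of symbols and grouped by role into feedback on p53, cell cycle arrest, cell death, DNA repair and nucleotide supply, control of AKT and mTOR, and metabolism and secreted factors. A gene entered when its symbol, after updating, was assigned to a feature of the array, and its brightest feature, averaged over the 16 arrays, was taken as its level. By this rule 29 of the 32 genes were measured, among 20725 genes in all, through 47 features. Trp53, which encodes p53 itself, Bax and Fdxr were not analysed here.

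The RNA came from alveolar epithelial type II (AT2) cells, the surfactant-making cells of the lung, of mouse pups at postnatal day 3, and was measured on 16 single-colour Cy3 arrays. There were 6 wild-type samples from hyperoxia, 4 wild-type samples from normoxia, 2 Fgf10+/- samples from hyperoxia and 4 Fgf10+/- samples from normoxia. Hyperoxia was 85% oxygen in a chamber from postnatal day 0 to day 3, and the normoxia groups were kept without it. Fgf10+/- pups are heterozygous for a loss of Fgf10, a growth factor that lung mesenchyme supplies to the epithelium, and the labels give no cell type or promoter that would limit the loss. The series text gives 4 samples a group, whereas the sample labels used here give the numbers above.

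p53 is a transcription factor that is kept at a low level by the ubiquitin ligase Mdm2 and builds up when DNA is damaged. It binds a pair of similar short sequence elements, called half-sites, and raises genes that stop the cell cycle, repair DNA, start apoptosis or restrain growth signals. High oxygen damages DNA through reactive oxygen species, and the lung epithelium is exposed to it directly.

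The values are log2 intensities, in which a difference of 1 is a 2-fold difference, and the median of all values was 4.34. Each array was made from a bulk RNA sample, in which fewer cells of a type and less RNA per cell cannot be told apart. The mean of 7 AT2 markers lay between 11.57 and 12.80 in all 16 samples, and Sftpc, the surfactant protein C gene, between 15.95 and 15.98. The highest value on any array was 15.98, so the even level of Sftpc does not show an even AT2 content. Markers of other cells were present as well and none was listed at 0. Over the 16 samples the mean of 4 club cell markers was 11.09 to 14.82, and that of 4 red cell markers was 9.68 to 13.36. In wild type the mean of 6 smooth muscle and pericyte markers was 7.78 to 9.20 in hyperoxia and 6.61 to 9.77 in normoxia, and in Fgf10+/- it was 8.15 to 8.28 in hyperoxia and 6.29 to 7.16 in normoxia. The mean of 6 endothelial markers was 7.75 to 8.90 in hyperoxia and 7.62 to 8.02 in normoxia in wild type, and 7.36 to 8.84 in hyperoxia and 6.65 to 7.27 in normoxia in Fgf10+/-. The mean of 10 thymocyte markers was above 5 in 4 normoxia libraries, wild-type replicate 4 and Fgf10+/- replicates 1, 2 and 4, and was 4.01 to 4.42 in the 8 hyperoxia libraries. Nothing in the labels says that samples came from separate animals, so the p-values below measure the spread between these samples, which may be technical.

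A small number of the p53 targets rose in hyperoxia, and the same 3 were past the threshold in both genotypes: Phlda3, Ccng1 and Aen. In wild type 4 of the 29 genes rose and 0 fell, against 1.77% of all genes tested that rose and 1.36% that fell. In Fgf10+/- 5 of the 29 rose and 0 fell, against 1.18% that rose and 1.26% that fell among all genes. In the mean effect, the average of the changes in the 2 genotypes with equal weight, 8 of the 29 rose and 0 fell, against 4.97% that rose and 6.14% that fell among all genes. At an unadjusted p under 0.05, 0 of the 29 were lower in wild type, 2 in Fgf10+/- and 4 in the mean effect, where 10.8%, 9.36% and 15.3% of all genes were. Calls were made with limma at a Benjamini-Hochberg adjusted p under 0.05 over the 20725 genes. The median change of the 29 genes was 0.28 in wild type and 0.27 in Fgf10+/-, on the log2 scale, where the medians over all genes were -0.08 and -0.04. In each genotype 20 of the 29 changes were positive, against 41.7% of all genes in wild type and 46.6% in Fgf10+/-. The remaining 21 genes were called in no comparison, and they include several widely used p53 readouts, among them Mdm2, Cdkn1a, Bbc3 and Pmaip1.

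**Figure D1:**
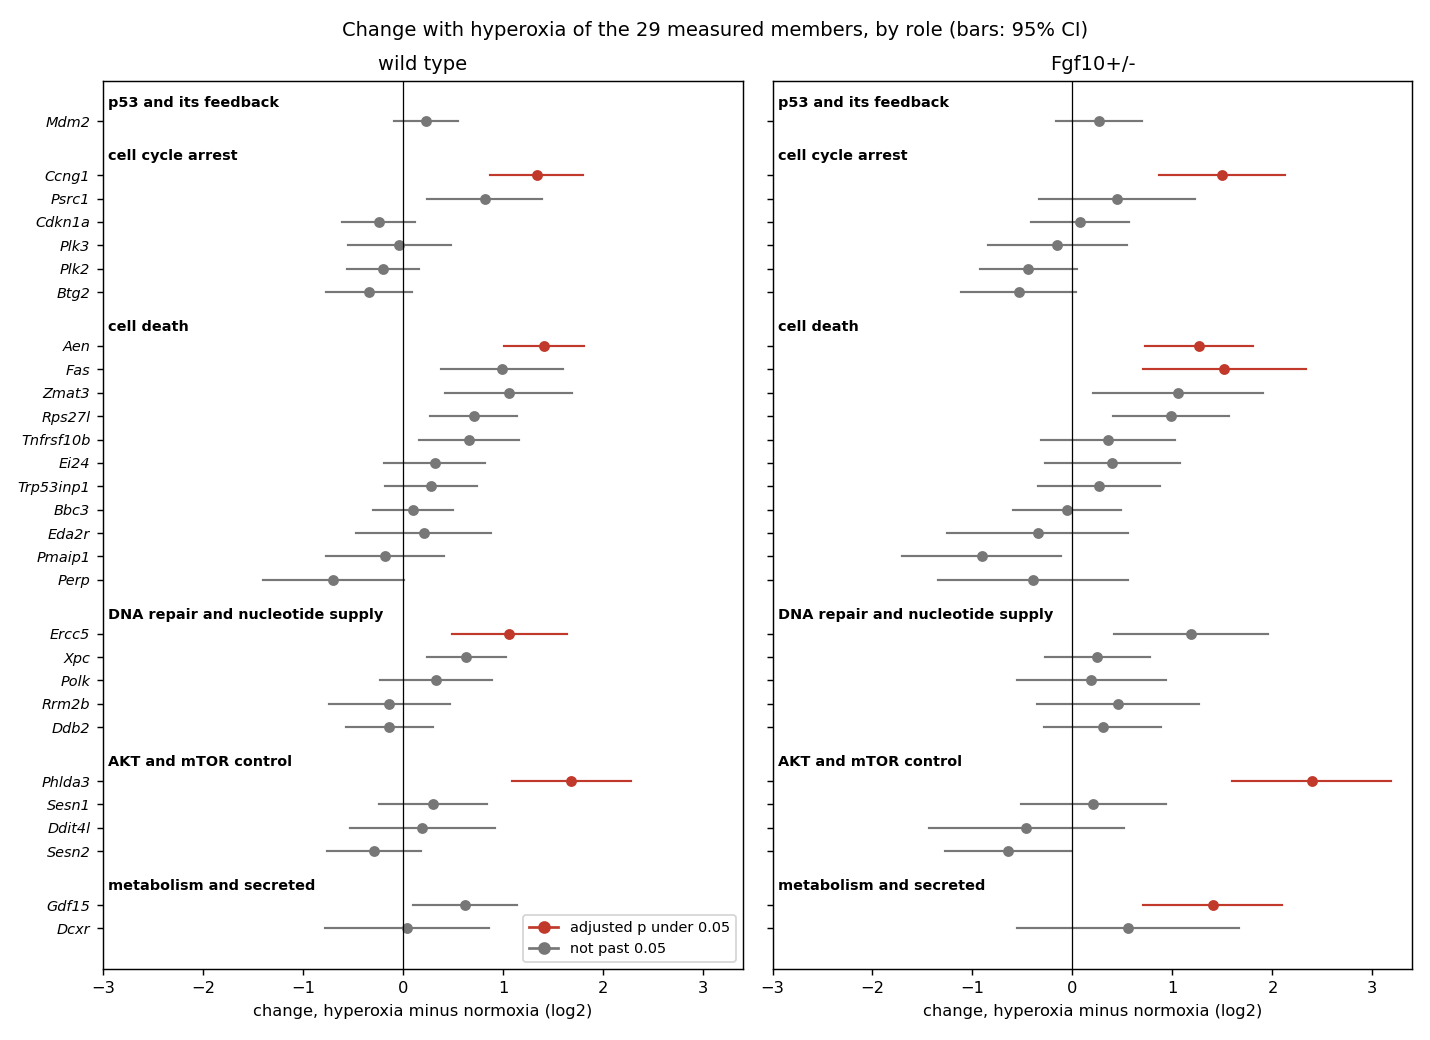
Change with hyperoxia of the 29 measured genes by role, in wild type (left) and Fgf10+/- (right). Points are log2 changes (hyperoxia minus normoxia), bars are 95% confidence intervals from the limma fit, and red marks an adjusted p under 0.05. Phlda3, Ccng1 and Aen are red on both sides.

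Feedback on p53 was represented by Mdm2, the ubiquitin ligase that p53 induces and that removes p53. Mdm2 levels in wild type were 10.25, 10.46 and 10.73 in hyperoxia (lowest, median and highest of 6) and 10.09, 10.34, 10.26 and 10.27 in normoxia. In Fgf10+/- they were 10.46 and 10.39 in hyperoxia and 10.28, 9.91, 10.31 and 10.10 in normoxia. The wild-type groups overlapped, while both Fgf10+/- hyperoxia samples lay above the 4 normoxia samples by a small margin. The changes were 0.23 ± 0.15 (SE) in wild type and 0.27 ± 0.20 in Fgf10+/-, and neither passed the test (limma with Benjamini-Hochberg adjustment, adjusted p = 0.444 and 0.549). The intervals ended at 0.55 in wild type and 0.70 in Fgf10+/-, so the data allow a rise of Mdm2 up to those sizes.

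Cell cycle arrest was represented by 6 genes, of which 1 rose in each genotype. Ccng1, which encodes cyclin G1, a p53-induced protein that acts with a phosphatase on Mdm2, had levels of 7.44, 7.94 and 8.47 (lowest, median and highest) in wild-type hyperoxia and of 6.57, 6.64, 6.78 and 6.45 in wild-type normoxia. Its levels were 7.86 and 8.26 in Fgf10+/- hyperoxia and 6.37, 6.79, 6.56 and 6.51 in Fgf10+/- normoxia. Every hyperoxia sample lay above every normoxia sample of both genotypes. Ccng1 rose by 1.34 ± 0.22 (SE) in wild type, 2.53-fold, and by 1.50 ± 0.30 in Fgf10+/-, 2.83-fold (limma with Benjamini-Hochberg adjustment, adjusted p = 0.00255 and 0.0168). The wild-type normoxia sample with the highest smooth muscle mean, replicate 1 at 9.77, had Ccng1 at 6.57, among the other normoxia samples. This is 1 sample, and the part of smooth muscle cells in the Ccng1 levels was not tested.

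Cdkn1a encodes p21, the inhibitor of cyclin-dependent kinases through which p53 halts the cell cycle. Its brightest feature read 9.75, 9.98 and 10.24 in wild-type hyperoxia (lowest, median and highest) and 10.06, 10.45, 10.59 and 9.87 in wild-type normoxia. In Fgf10+/- it read 10.09 and 10.06 in hyperoxia and 10.10, 9.78, 10.11 and 10.01 in normoxia. The groups overlapped in both genotypes, and the changes were -0.24 ± 0.17 (SE) in wild type and 0.08 ± 0.23 in Fgf10+/- (limma with Benjamini-Hochberg adjustment, adjusted p = 0.493 and 0.905). The upper ends of the intervals were 0.12 and 0.57. Cdkn1a had 12 features, and 10 of them were bright and alike, with an SD of 0.09 to 0.21 among the 10 within an array. These 10 changed by -0.34 to -0.10 in wild type.

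A dim Cdkn1a feature annotated to another transcript of the gene gave different values. It read 4.67, 5.30 and 5.75 in wild-type hyperoxia (lowest, median and highest), against 2.80, 4.22, 4.19 and 3.90 in wild-type normoxia. In Fgf10+/- it read 5.56 and 4.92 in hyperoxia, against 4.40, 4.52, 3.52 and 4.06 in normoxia. The hyperoxia and normoxia samples did not overlap in either genotype. In a fit over every named feature, chosen after the data had been seen, it rose by 1.50 ± 0.30 (SE) in wild type, while the change of 1.11 ± 0.40 in Fgf10+/- did not pass (limma with Benjamini-Hochberg adjustment, adjusted p = 0.0126 and 0.177). Its mean of 4.61 lies near the median of all values, and no detection flag tells whether it was above background. The remaining dim feature changed by 0.54 in wild type and 0.44 in Fgf10+/-.

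**Figure D2:**
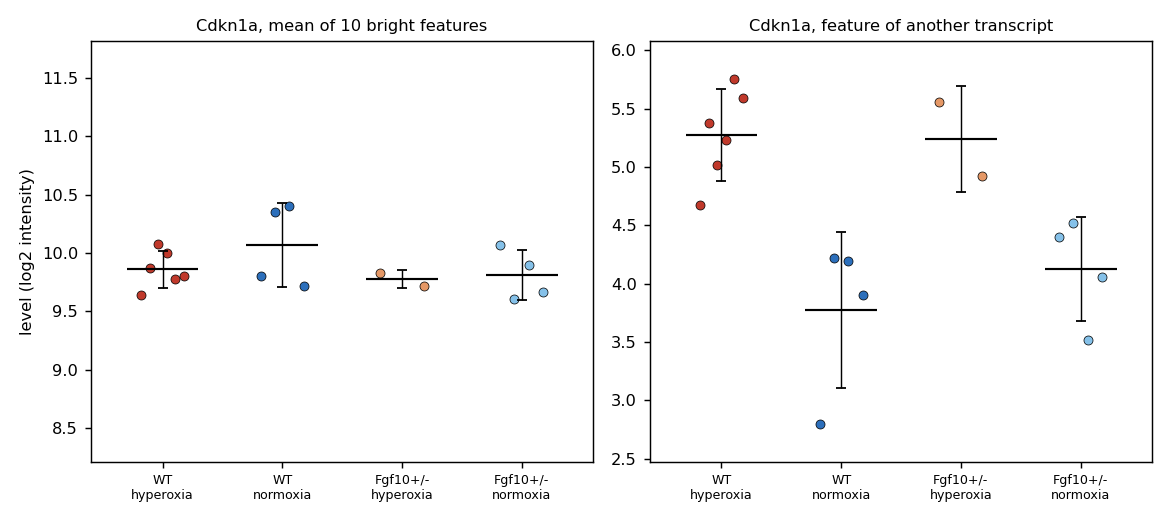
Level of Cdkn1a in every sample, as the mean of its 10 bright features (left) and at the dim feature of another transcript (right). Points are samples, lines are group means with SD, and both y axes are log2 intensity over a span of equal length. The bright features overlap between the groups at 9.61 to 10.40, and the dim feature is higher in hyperoxia without overlap.

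The sequence before the start of Ccng1 and of both annotated starts of Cdkn1a is shown because these 2 arrest genes gave different results, a rise of Ccng1 and overlapping groups for Cdkn1a. The windows run from 250 bases before to 50 bases after a start and come from RefSeq on GRCm38.p6. They were searched for the p53 half-site consensus of 10 bases, which reads the same on both strands, and for pairs of half-sites with a spacer of at most 13 bases and at most 2 mismatches over the pair. Capitals mark exact half-sites and pairs with at most 1 mismatch, and pairs with 2 mismatches are not marked. Ccng1 lies at chr11:40755237-40755536 on the minus strand, and the Cdkn1a windows at chr17:29090729-29091028 and chr17:29093519-29093818 on the plus strand.
Ccng1: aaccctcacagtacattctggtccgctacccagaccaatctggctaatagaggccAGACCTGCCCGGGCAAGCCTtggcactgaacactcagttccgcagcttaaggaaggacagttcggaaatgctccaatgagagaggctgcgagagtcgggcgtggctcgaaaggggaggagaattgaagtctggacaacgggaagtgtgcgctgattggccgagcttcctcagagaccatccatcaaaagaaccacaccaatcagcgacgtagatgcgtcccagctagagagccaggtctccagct
Cdkn1a, upstream start: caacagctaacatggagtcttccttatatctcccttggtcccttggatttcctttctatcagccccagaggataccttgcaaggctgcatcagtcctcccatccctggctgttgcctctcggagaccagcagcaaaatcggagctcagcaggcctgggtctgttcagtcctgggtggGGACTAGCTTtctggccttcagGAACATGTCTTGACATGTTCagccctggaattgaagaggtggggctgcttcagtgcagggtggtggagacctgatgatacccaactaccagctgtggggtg
Cdkn1a, downstream start: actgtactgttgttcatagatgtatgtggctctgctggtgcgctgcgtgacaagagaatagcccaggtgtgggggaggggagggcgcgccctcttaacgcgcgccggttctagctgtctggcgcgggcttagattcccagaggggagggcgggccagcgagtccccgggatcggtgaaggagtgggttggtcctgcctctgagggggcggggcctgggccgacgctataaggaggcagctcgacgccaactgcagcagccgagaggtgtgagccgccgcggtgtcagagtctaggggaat
The Ccng1 window holds a pair with a spacer of 0 and 1 mismatch, at positions -195 and -185 from the start. The upstream Cdkn1a window holds 2 half-sites with 0 mismatches, GGACTAGCTT at -73 and GAACATGTCT at -51, with a spacer of 12 bases. GAACATGTCT also forms a pair with the adjoining TGACATGTTC at -41, with a spacer of 0 and 1 mismatch. The downstream window holds no half-site and no pair. The files do not pair array features with starts. An exact half-site occurred in 12 of the 33 windows that the table gives for 24 of the 32 genes, or 36.4%, and in 8.4% of all 32851 windows. A pair occurred in 5 of the 33 windows, or 15.2%, and in 4.1% of all windows. The list holds genes known as p53 targets, so these shares describe the list.

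The other 4 arrest genes were Btg2, an antiproliferative protein, the polo-like kinases Plk2 and Plk3, and Psrc1, a spindle-associated protein. None was called. Psrc1 read 4.43, 5.55 and 6.25 in wild-type hyperoxia (lowest, median and highest) and 4.71, 4.31, 4.79 and 4.79 in wild-type normoxia, and 5.67 and 5.29 in Fgf10+/- hyperoxia and 5.05, 5.05, 4.81 and 5.21 in Fgf10+/- normoxia. Only wild-type hyperoxia replicate 1 lay within the wild-type normoxia range. Its changes of 0.82 and 0.45 did not pass the test. Btg2 changed by -0.34 in wild type and -0.53 in Fgf10+/-, Plk2 by -0.20 and -0.44, and Plk3 by -0.04 and -0.15.

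Cell death was represented by 11 measured genes, of which 1 rose in wild type, 2 in Fgf10+/- and 4 in the mean effect. Aen encodes a nuclease that p53 induces and that takes part in cutting DNA during apoptosis. Its levels were 9.99, 10.19 and 10.49 (lowest, median and highest) in wild-type hyperoxia and 9.05, 8.76, 8.37 and 9.05 in wild-type normoxia, and 10.38 and 10.54 in Fgf10+/- hyperoxia and 8.80, 9.57, 9.18 and 9.20 in Fgf10+/- normoxia. The lowest of the 8 hyperoxia samples exceeded the highest of the 8 normoxia samples. Aen rose by 1.41 ± 0.19 (SE) in wild type, 2.65-fold, and by 1.27 ± 0.25 in Fgf10+/-, 2.41-fold (limma with Benjamini-Hochberg adjustment, adjusted p = 0.000526 and 0.0174). Its second feature, with a mean of 9.31, changed by 1.34 and 1.22.

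Fas encodes the death receptor for Fas ligand. It read 7.25, 7.34 and 7.67 in wild-type hyperoxia (lowest, median and highest) and 6.71, 6.48, 5.88 and 6.55 in wild-type normoxia, and 6.45 and 7.99 in Fgf10+/- hyperoxia and 4.92, 6.01, 5.66 and 6.19 in Fgf10+/- normoxia. Hyperoxia and normoxia did not overlap within either genotype, but the 2 Fgf10+/- hyperoxia samples lay far apart. Fas rose in Fgf10+/- by 1.52 ± 0.39 (SE) and in the mean effect by 1.26 ± 0.24, while the change of 0.99 ± 0.29 in wild type did not pass (limma with Benjamini-Hochberg adjustment, adjusted p = 0.0473, 0.00333 and 0.074). Without Fgf10+/- hyperoxia replicate 2 the Fgf10+/- change was 0.76 and was not called. The second Fas feature, with a mean of 6.65, changed by 0.81 in wild type and 1.12 in Fgf10+/-.

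Rps27l, a ribosomal protein S27-like gene that is a direct p53 target, and Zmat3, an RNA-binding zinc finger protein induced by p53, were called in the mean effect and in neither genotype alone. Rps27l was the brightest of the 29 genes, at 11.68, 12.25 and 12.54 in wild-type hyperoxia (lowest, median and highest) and 11.44, 11.70, 11.14 and 11.78 in wild-type normoxia, and at 12.34 and 12.69 in Fgf10+/- hyperoxia and 11.13, 11.74, 11.78 and 11.44 in Fgf10+/- normoxia. Wild-type hyperoxia replicate 1 was the only hyperoxia sample inside the normoxia range. Rps27l rose in the mean effect by 0.85 ± 0.17 (SE), 1.8-fold (limma with Benjamini-Hochberg adjustment, adjusted p = 0.00485).

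Zmat3 read 5.97, 6.89 and 7.26 in wild-type hyperoxia (lowest, median and highest) and 5.45, 5.73, 5.97 and 5.49 in wild-type normoxia, and 6.61 and 7.17 in Fgf10+/- hyperoxia and 5.40, 5.31, 6.28 and 6.31 in Fgf10+/- normoxia. In wild type the lowest hyperoxia sample and the highest normoxia sample were both at 5.97 to 2 decimals. Zmat3 rose in the mean effect by 1.06 ± 0.25 (SE), with changes of 1.06 in each genotype (limma with Benjamini-Hochberg adjustment, adjusted p = 0.0123).

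The windows before the starts of Aen and Rps27l are shown as those of the 2 cell death genes with a match among the genes that rose. They come from RefSeq on GRCm38.p6, on the plus strand, at chr7:78895677-78895976 for the upstream of 2 Aen starts and chr9:66946163-66946462 for the downstream of 2 Rps27l starts, with capitals as above.
Aen: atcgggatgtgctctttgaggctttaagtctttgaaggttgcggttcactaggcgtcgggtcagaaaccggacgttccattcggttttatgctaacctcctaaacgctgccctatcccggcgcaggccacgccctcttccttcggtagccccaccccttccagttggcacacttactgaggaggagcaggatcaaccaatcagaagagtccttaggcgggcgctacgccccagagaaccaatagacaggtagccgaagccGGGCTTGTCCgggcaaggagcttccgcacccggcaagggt
Rps27l: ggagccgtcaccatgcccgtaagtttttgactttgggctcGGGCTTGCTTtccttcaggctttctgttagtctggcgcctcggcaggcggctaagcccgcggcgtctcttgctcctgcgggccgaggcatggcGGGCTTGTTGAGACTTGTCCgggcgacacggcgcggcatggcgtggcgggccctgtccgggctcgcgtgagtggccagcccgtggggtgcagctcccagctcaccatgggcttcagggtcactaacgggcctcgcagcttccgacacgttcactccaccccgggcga
The Aen window holds 1 half-site, GGGCTTGTCC, which begins at position 10 after the upstream start. It lies at -121 before the other Aen start, whose window at chr7:78895808-78896107 overlaps this one. The Rps27l window holds a pair at -117 and -107 with a spacer of 0 and 1 mismatch and a further half-site upstream of it. The windows of Phlda3, Gdf15, Fas and Ercc5 hold no exact half-site and no pair. Those of Mdm2 and Trp53 each hold a half-site. Half-sites also occur before Ei24, Polk, Ddit4l and Sesn1, which were not called, and before Bax, which was not analysed. The Bax and Sesn1 half-sites are part of pairs with 2 mismatches. The relation of matches to the changes was not tested. Zmat3 had no window. Sequence outside the windows was not searched, so a site there would be missed.

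The other 7 measured cell death genes were not called. Bbc3 encodes PUMA, which with Noxa, the product of Pmaip1, frees the mitochondrial death pathway. Bbc3 read 8.40, 8.95 and 9.11 in wild-type hyperoxia (lowest, median and highest) and 9.09, 8.45, 8.77 and 8.75 in wild-type normoxia, and 8.73 and 8.55 in Fgf10+/- hyperoxia and 8.84, 8.59, 8.96 and 8.37 in Fgf10+/- normoxia. The groups overlapped, and the changes were 0.10 in wild type and -0.05 in Fgf10+/-, with intervals from -0.30 to 0.50 and from -0.59 to 0.49. Pmaip1 changed by -0.18 and -0.90, and its groups overlapped in both genotypes. Tnfrsf10b, a TRAIL death receptor, changed by 0.66 in wild type and 0.36 in Fgf10+/- with an unadjusted p of 0.0123 and 0.269 in limma.

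Ei24, an endoplasmic reticulum protein that p53 induces, changed by 0.32 and 0.40, and Trp53inp1, a stress protein that p53 induces, by 0.28 and 0.27. The second Trp53inp1 feature, with a mean of 5.31, changed by 0.53 and 0.59. Eda2r, the ectodysplasin A2 receptor, was dim, with a mean of 4.04, and changed by 0.21 and -0.34. The second Eda2r feature, with a mean of 3.92, changed by -0.10 and 0.18. Perp, a p53 target that is also a desmosome component, changed by -0.70 ± 0.33 (SE) in wild type and -0.39 ± 0.45 in Fgf10+/-. In wild-type hyperoxia, Perp was highest in replicates 4 and 6, at 10.05 and 9.56, and lowest in replicates 1 and 5, at 8.50 and 8.49. The mean of 4 club cell markers was 14.68 and 14.03 in the first pair and 11.23 and 11.09 in the second, and its part in the values of Perp was not tested.

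DNA repair and nucleotide supply were represented by 5 genes, of which 1 rose. Ercc5 encodes XPG, the nuclease that cuts 3' of a lesion in nucleotide excision repair. It read 5.95, 6.03 and 7.57 in wild-type hyperoxia (lowest, median and highest) and 5.39, 5.31, 5.09 and 5.40 in wild-type normoxia, and 6.41 and 6.53 in Fgf10+/- hyperoxia and 4.98, 5.39, 5.38 and 5.38 in Fgf10+/- normoxia. Every hyperoxia sample lay above every normoxia sample, and wild-type hyperoxia replicate 5 lay well above the others. Ercc5 rose by 1.06 ± 0.27 (SE) in wild type and by 1.12 ± 0.23 in the mean effect, and the change of 1.19 ± 0.36 in Fgf10+/- did not pass (limma with Benjamini-Hochberg adjustment, adjusted p = 0.0432, 0.00472 and 0.101). Omitting 1 wild-type library at a time ended the wild-type call in 5 of 10 fits. The second Ercc5 feature was dim, with a mean of 4.30, and changed by -0.51 and -0.12.

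Xpc, which recognises distorted DNA at the start of the same repair pathway, read 6.66, 6.81 and 7.23 in wild-type hyperoxia (lowest, median and highest) and 5.79, 6.48, 6.58 and 6.17 in wild-type normoxia. These groups did not overlap, and in Fgf10+/-, at 6.56 and 7.03 in hyperoxia and 6.45, 6.62, 6.63 and 6.45 in normoxia, they did. The changes of 0.63 ± 0.19 (SE) and 0.25 ± 0.25 did not pass (limma with Benjamini-Hochberg adjustment, adjusted p = 0.0747 and 0.666). Polk, a translesion polymerase, changed by 0.33 and 0.19, and its dim second feature, with a mean of 4.27, by 0.03 and -0.19. Ddb2, the damage sensor that works with Xpc, changed by -0.14 and 0.31. Rrm2b, the p53-induced subunit of ribonucleotide reductase, had the lowest mean of the 29 genes, 3.87, and changed by -0.14 and 0.46. Its second feature, with a mean of 3.82, changed by -0.45 and -0.70.

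Control of AKT and mTOR was represented by 4 genes, of which 1 rose, with the largest changes among the 29 genes in both genotypes. Phlda3 encodes a pleckstrin homology domain protein that p53 induces and that keeps AKT from the membrane. Its levels were 10.25, 10.42 and 11.05 (lowest, median and highest) in wild-type hyperoxia and 9.19, 9.01, 9.10 and 7.99 in wild-type normoxia, and 10.27 and 10.86 in Fgf10+/- hyperoxia and 8.64, 7.42, 8.54 and 8.06 in Fgf10+/- normoxia. No normoxia sample reached the lowest hyperoxia sample, and the normoxia samples spread more widely. Phlda3 rose by 1.68 ± 0.28 (SE) in wild type, 3.21-fold, and by 2.40 ± 0.38 in Fgf10+/-, 5.27-fold (limma with Benjamini-Hochberg adjustment, adjusted p = 0.00284 and 0.00457). The difference between these changes, 0.72 ± 0.47, was not past the threshold (interaction, unadjusted p = 0.148 in limma). In the 4 normoxia libraries with a thymocyte mean above 5 Phlda3 was between 7.42 and 8.64, and in the other 4 normoxia libraries between 8.54 and 9.19.

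Sesn1 and Sesn2 encode sestrins, which p53 or stress induces and which restrain mTOR, and Ddit4l encodes a relative of the mTOR inhibitor REDD1. Sesn1 changed by 0.30 and 0.21 and Ddit4l by 0.19 and -0.46, and neither was called. Sesn2 read 7.75, 8.49 and 8.93 in wild-type hyperoxia (lowest, median and highest) and 8.70, 8.94, 8.93 and 8.33 in wild-type normoxia, and 8.34 and 8.20 in Fgf10+/- hyperoxia and 8.73, 9.39, 8.71 and 8.79 in Fgf10+/- normoxia. The Fgf10+/- groups did not overlap, with hyperoxia lower, and the wild-type groups did. Its changes of -0.29 ± 0.22 (SE) and -0.64 ± 0.30 did not pass (limma with Benjamini-Hochberg adjustment, adjusted p = 0.526 and 0.294).

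Metabolism and secreted factors were represented by Gdf15, a stress-induced hormone of the TGF-beta family, and Dcxr, a xylulose reductase. Gdf15 read 7.78, 8.32 and 9.03 in wild-type hyperoxia (lowest, median and highest) and 8.36, 7.79, 7.30 and 7.55 in wild-type normoxia, and 7.39 and 7.91 in Fgf10+/- hyperoxia and 6.22, 6.42, 6.39 and 5.94 in Fgf10+/- normoxia. The wild-type groups overlapped, and the Fgf10+/- groups did not. Gdf15 rose in Fgf10+/- by 1.41 ± 0.33 (SE), 2.65-fold, and in the mean effect by 1.01 ± 0.21, while the change of 0.62 ± 0.25 in wild type did not pass (limma with Benjamini-Hochberg adjustment, adjusted p = 0.0335, 0.00493 and 0.191). In Fgf10+/- the macrophage and neutrophil marker means were also higher in hyperoxia without overlap. They were 5.96 to 6.21 and 8.82 to 8.91 in hyperoxia and 5.16 to 5.93 and 7.84 to 8.21 in normoxia. The smooth muscle and pericyte, endothelial and B cell means were higher there without overlap too, and the club cell mean was lower. The B cell mean was 5.37 to 5.50 in hyperoxia and 4.76 to 5.07 in normoxia. The part of any of these cells in the rise of Gdf15 was not tested. The changes of Gdf15 in the 2 genotypes differed by 0.79 ± 0.41, with an unadjusted interaction p of 0.072 in limma. Dcxr changed by 0.04 in wild type and 0.56 in Fgf10+/-.

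**Figure D3:**
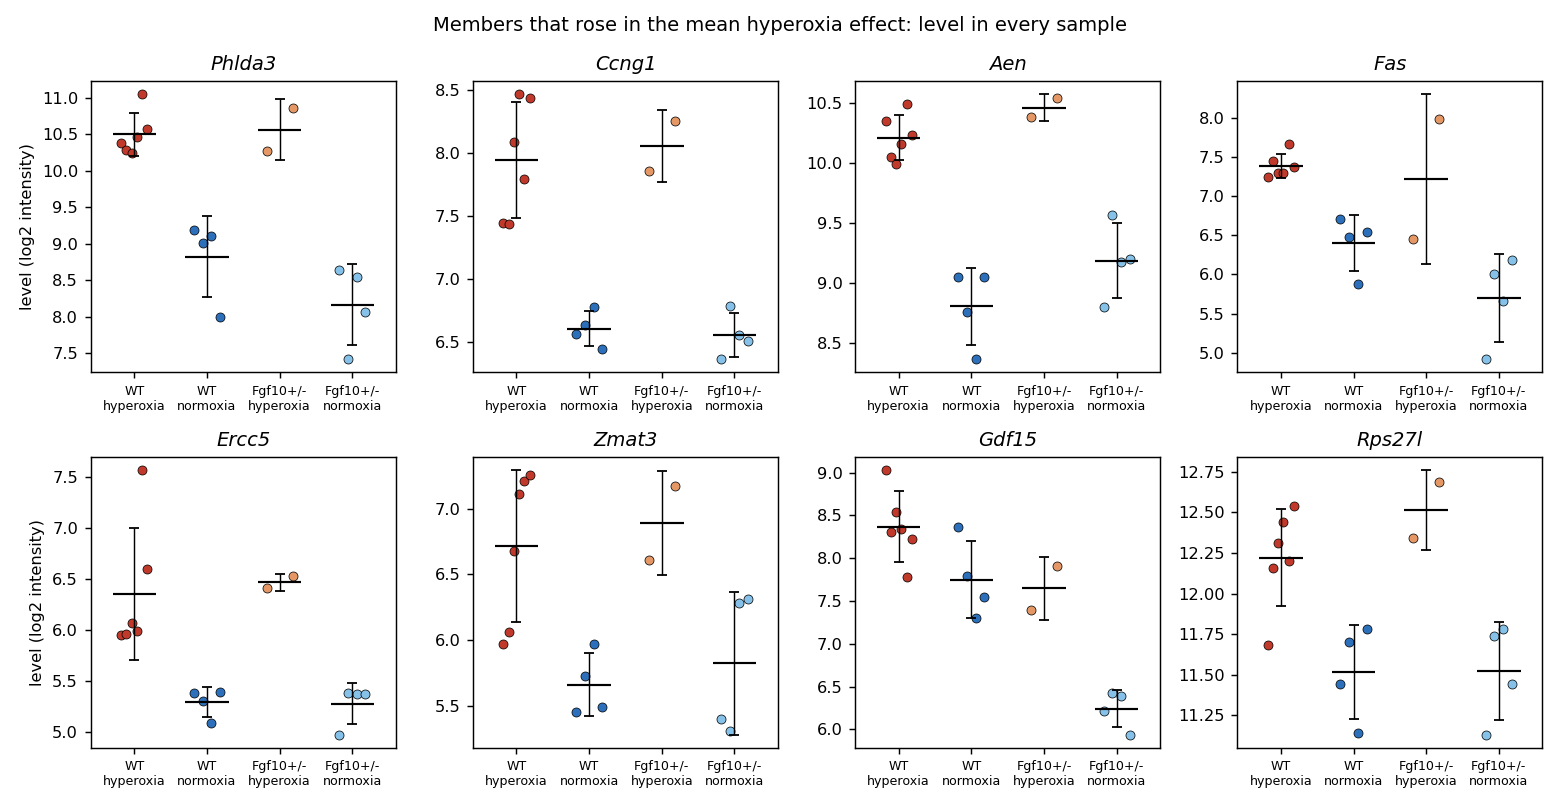
Level of the 8 genes that rose in the mean effect, in every sample. Each panel is a gene, the y axis is log2 intensity, points are samples and lines are group means with SD. In Phlda3, Ccng1, Aen and Ercc5 hyperoxia and normoxia do not overlap, while Gdf15 in Fgf10+/- hyperoxia, at 7.39 and 7.91, lies within the range of wild-type normoxia.

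Counted by whether the samples of hyperoxia and normoxia overlapped, 7 of the 29 genes were higher and 0 lower in wild-type hyperoxia without overlap, against 3.13% and 4.02% of all genes. The 7 genes were Ccng1, Aen, Fas, Zmat3, Xpc, Ercc5 and Phlda3. In Fgf10+/-, 11 were higher and 3 lower, against 12.4% and 13.6% of all genes, shares that are large because only 2 hyperoxia samples were compared with 4. When 1 of the 6 Fgf10+/- libraries was left out in turn, Phlda3 stayed called in 5 fits, Aen and Ccng1 in 4 each, Gdf15 in 2 and Fas in 1, while in wild type Aen, Ccng1 and Phlda3 stayed called in 10 of 10 fits.

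The smooth muscle and pericyte markers and the endothelial markers also had higher values in hyperoxia. Of the smooth muscle and pericyte markers 6 of 6 had a positive change in each genotype, as had 6 of 6 endothelial markers. In Fgf10+/- the mean of 6 macrophage markers was 5.96 to 6.21 in hyperoxia and 5.16 to 5.93 in normoxia, and that of 5 neutrophil markers was 8.82 to 8.91 in hyperoxia and 7.84 to 8.21 in normoxia, both without overlap. Club cell markers were lower there without overlap, at 11.88 to 13.71 in hyperoxia and 13.94 to 14.82 in normoxia. In wild type these 3 lists overlapped between hyperoxia and normoxia. The part of these cells in the changes of the p53 targets was not tested. Wild-type normoxia replicate 1 had the highest smooth muscle and pericyte mean of all 16 samples. In it Phlda3 was at 9.19, Ccng1 at 6.57 and Aen at 9.05, each below every hyperoxia sample. Of all normoxia samples, this library had the highest Phlda3, Fas, at 6.71, and Gdf15, at 8.36, but not the highest Ccng1 or Aen. The 4 libraries with high thymocyte markers were all normoxia libraries. Without them, Aen, Ccng1 and Phlda3 rose in wild type by 1.49, 1.28 and 1.40 (limma with Benjamini-Hochberg adjustment, adjusted p = 0.00796, 0.0404 and 0.016). That fit called no others of the 29 in wild type, and 4 in the mean effect, these 3 and Fas. In Fgf10+/-, where it left 1 normoxia library, 0 were called, with changes of 2.02 for Phlda3, 1.50 for Ccng1 and 1.28 for Aen.

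Fgf10 genotype was compared within each oxygen condition. None of the 29 genes was called in Fgf10+/- against wild type, in normoxia or in hyperoxia, or in the interaction of genotype and hyperoxia, by limma at an adjusted p under 0.05. Among all genes 2 were called in normoxia, or 0.00965%, 0 in hyperoxia, or 0%, and 2 in the interaction, or 0.00965%. At an unadjusted p under 0.05 there were 3 of the 29 in normoxia, 3 in hyperoxia and 0 in the interaction, where 6.03%, 4.37% and 4.11% of all genes had such a p.

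Gdf15 had the smallest p between the genotypes. In normoxia it read 6.22, 6.42, 6.39 and 5.94 in Fgf10+/-, against 8.36, 7.79, 7.30 and 7.55 in wild type, with no overlap. The difference of -1.51 ± 0.27 (SE), 2.84-fold lower in Fgf10+/-, was not past the threshold over all genes (limma with Benjamini-Hochberg adjustment, adjusted p = 0.0952). The difference was called when dim features were left out, with trended and robust variances and with array weights. It was called in 0 of the 8 fits that left out 1 library. In hyperoxia it read 7.39 and 7.91 in Fgf10+/-, against 7.78, 8.32 and 9.03 in wild type (lowest, median and highest), a difference of -0.72 ± 0.31 (limma with Benjamini-Hochberg adjustment, adjusted p = 1). Macrophage markers were lower too in normoxia, but the ranges overlapped, at 5.16 to 5.93 in Fgf10+/- and 5.64 to 6.64 in wild type. Neutrophil markers were at 7.84 to 8.21 in Fgf10+/- and 8.28 to 9.23 in wild type, without overlap. Endothelial markers did not overlap either, at 6.65 to 7.27 in Fgf10+/- and 7.62 to 8.02 in wild type. The other marker lists overlapped. The part of any of these cells in the level of Gdf15 was not tested.

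Fas and Phlda3 also had an unadjusted p under 0.05 in normoxia, with differences of -0.71 ± 0.32 (SE) and -0.66 ± 0.31 in Fgf10+/- against wild type. In hyperoxia the others were Pmaip1 and Plk2. Pmaip1 read 4.76 and 5.41 in Fgf10+/- hyperoxia and 5.57, 5.89 and 6.31 in wild-type hyperoxia (lowest, median and highest), without overlap. In normoxia it read 5.89, 6.78, 5.16 and 6.13 in Fgf10+/- and 6.09, 5.82, 5.82 and 6.73 in wild type, which overlapped. The difference in hyperoxia was -0.85 ± 0.35 (limma with Benjamini-Hochberg adjustment, adjusted p = 1). Plk2 read 6.71 and 7.15 in Fgf10+/- hyperoxia, below the 7.28, 7.37 and 7.53 of wild-type hyperoxia (lowest, median and highest). In normoxia it read 7.57, 6.94, 7.59 and 7.38 in Fgf10+/- and 7.49, 7.63, 7.85 and 7.42 in wild type, which overlapped. Its difference in hyperoxia was -0.46 ± 0.22 (limma with Benjamini-Hochberg adjustment, adjusted p = 1). Without overlap, 0 of the 29 were higher and 2 lower in Fgf10+/- hyperoxia, against 3.67% and 3.31% of all genes, and 1 was higher and 1 lower in normoxia, against 1.42% and 2.04%.

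**Figure D4:**
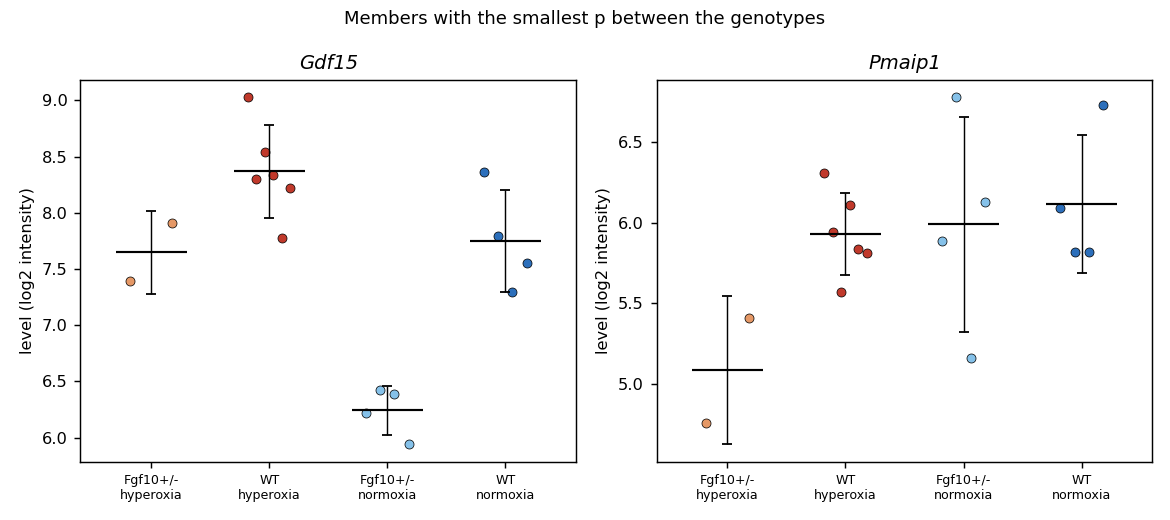
Level of Gdf15 (left) and Pmaip1 (right) in every sample, in log2 intensity, with group means and SD. Gdf15 is lower in the 4 Fgf10+/- normoxia samples, at 5.94 to 6.42, than in the 4 wild-type normoxia samples, and Pmaip1 is lower in the 2 Fgf10+/- hyperoxia samples than in the 6 wild-type hyperoxia samples. Neither difference was called.

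Regulators of p53 were examined as the first of 7 surrounding lists, which follow from textbook roles. The shares to set beside their counts are those of all genes, of which 1.77% rose and 1.36% fell in wild type, 1.18% and 1.26% in Fgf10+/-, and 4.97% and 6.14% in the mean effect. Of 16 measured regulators, 1 rose in wild type, 0 in Fgf10+/- and 2 in the mean effect, and 0 fell. In Fgf10+/- 4 of the 16 had an unadjusted p under 0.05 in limma, as had 16.7% of all genes. Mdm4, a relative of Mdm2 that holds p53 inactive, averaged 6.25 ± 0.47 (SD, n = 6) in wild-type hyperoxia and 4.89 ± 0.38 (n = 4) in wild-type normoxia, and 6.41 ± 0.27 (n = 2) in Fgf10+/- hyperoxia and 5.31 ± 0.27 (n = 4) in Fgf10+/- normoxia. It rose by 1.36 ± 0.25 (SE) in wild type, and its change of 1.10 ± 0.33 in Fgf10+/- did not pass (limma with Benjamini-Hochberg adjustment, adjusted p = 0.00543 and 0.0981). A dim second Mdm4 feature, with a mean of 4.29, changed by 0.23 and -1.22. Cop1, another ligase for p53, rose in the mean effect by 0.42 ± 0.13 (adjusted p = 0.0484 in limma with Benjamini-Hochberg adjustment), a call kept in 2 of the 16 fits that left out 1 library. Further Cop1 features changed by 0.25 and -0.31 in wild type and by 0.34 and -0.24 in Fgf10+/-.

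Of 33 further p53 targets, 1 rose in wild type, 0 in Fgf10+/- and 1 in the mean effect, where 3 fell. In Fgf10+/- 5 of the 33 had an unadjusted p under 0.05 in limma, beside 16.7% of all genes. Dglucy, a D-glutamate cyclase, averaged 6.69 ± 0.48 (SD, n = 6) in wild-type hyperoxia and 5.65 ± 0.30 (n = 4) in wild-type normoxia, and it rose by 1.04 ± 0.24 (SE; limma with Benjamini-Hochberg adjustment, adjusted p = 0.0218). A second, dim Dglucy feature, with a mean of 4.47, changed by -0.00 and 0.59. Cd82, a tetraspanin, Tap1, a peptide transporter for antigen presentation, and Gadd45g, a stress sensor, fell in the mean effect by 0.63, 1.05 and 0.60, and the call of Gadd45g was kept in 3 of 16 fits without 1 library. Of all genes 4.97% rose and 6.14% fell in the mean effect. The median change of the 33 targets was -0.11 in wild type and -0.24 in Fgf10+/-, beside -0.08 and -0.04 for all genes.

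Cell cycle genes that are lowered through p53 and p21 had negative changes. Of 11 measured, 1 fell in wild type, 0 in Fgf10+/- and 8 in the mean effect, and the medians were -0.95, -1.49 and -1.22. Foxm1, a transcription factor of mitotic genes, averaged 4.85 ± 0.34 (SD, n = 6) in wild-type hyperoxia and 6.05 ± 0.30 (n = 4) in wild-type normoxia and fell by 1.21 ± 0.30 (SE; limma with Benjamini-Hochberg adjustment, adjusted p = 0.0391), a call kept in 2 of the 10 fits without 1 library. Its second, dim feature, with a mean of 4.40, changed by -0.36 in wild type and 0.05 in Fgf10+/-. Plk1 and Ccnb2, a mitotic kinase and a mitotic cyclin, fell in the mean effect by 1.62 and 1.53. The highest values of Ccnb2 were in 2 of the 4 normoxia libraries with thymocyte markers, 9.43 in wild-type replicate 4 and 9.58 in Fgf10+/- replicate 2. In Fgf10+/- 9 of the 11 had an unadjusted p under 0.05 in limma, all with a negative change, beside 9.36% of all genes with a negative change. Without the 4 libraries the median in the mean effect was -0.68 and 0 of 11 were called. With thymocyte markers as a covariate it was -0.51, and 0 were called.

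Of 17 genes for double-strand break repair 1 fell in each genotype and 3 in the mean effect. In each genotype it was H2ax, the histone that marks breaks, which averaged 8.87 ± 0.26 (SD, n = 6) in wild-type hyperoxia and 10.06 ± 0.44 (n = 4) in wild-type normoxia, and 8.46 ± 0.09 (n = 2) in Fgf10+/- hyperoxia and 10.04 ± 0.66 (n = 4) in Fgf10+/- normoxia. H2ax fell by 1.19 ± 0.27 (SE) in wild type and by 1.58 ± 0.36 in Fgf10+/- (limma with Benjamini-Hochberg adjustment, adjusted p = 0.0216 and 0.0306), with the Fgf10+/- call kept in 2 of 6 fits without 1 library. It was highest, at 10.70 and 10.89, in the same 2 libraries as Ccnb2. Without the 4 libraries it fell by 0.98 in wild type (limma with Benjamini-Hochberg adjustment, adjusted p = 0.0353), and its Fgf10+/- value was -1.0 and not called. Of 13 genes of nucleotide excision repair 1 fell in wild type, 0 in Fgf10+/- and 2 in the mean effect, and in Fgf10+/- 3 had an unadjusted p under 0.05 in limma, beside 16.7% of all genes. The wild-type gene was Rad23b, a partner of Xpc, which fell by 0.81 ± 0.19 in wild type (limma with Benjamini-Hochberg adjustment, adjusted p = 0.0284), a call kept in 4 of the 10 fits without 1 library, and its value was -0.74 and not called when the 4 libraries were left out.

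Base excision repair acts on altered bases, among them oxidised ones. Of 15 genes of this pathway 1 fell in wild type, 2 in Fgf10+/- and 3 in the mean effect. In wild type 2 of 15 had a positive change, where 41.7% of all genes had one. The wild-type median was -0.37, and it was -0.14 with thymocyte markers as a covariate and -0.22 without the 4 libraries. Ung, the uracil DNA glycosylase, averaged 9.96 ± 0.18 (SD, n = 6) in wild-type hyperoxia and 10.91 ± 0.30 (n = 4) in wild-type normoxia, and was at 9.83 and 10.16 in Fgf10+/- hyperoxia and 11.14 ± 0.36 (n = 4) in Fgf10+/- normoxia. It fell by 0.95 ± 0.20 (SE) in wild type and by 1.14 ± 0.26 in Fgf10+/- (limma with Benjamini-Hochberg adjustment, adjusted p = 0.0121 and 0.0314), with the Fgf10+/- call kept in 2 of 6 fits without 1 library. Without the 4 libraries with thymocyte markers the wild-type value was -0.90 with an adjusted p of 0.0528 (limma with Benjamini-Hochberg adjustment). Lig3, a DNA ligase, fell by 1.14 ± 0.29 in Fgf10+/- (limma with Benjamini-Hochberg adjustment, adjusted p = 0.0496), a call kept in 1 of the 6 fits without 1 library. Its second, dim feature, with a mean of 4.42, changed by -0.30 in wild type and 0.00 in Fgf10+/-.

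Of 19 genes of the AKT and mTOR pathway 0 were called in wild type, where 4 had an unadjusted p under 0.05 in limma beside 18.2% of all genes, 1 fell in Fgf10+/- and 3 fell in the mean effect. Ddit4 encodes REDD1, which restrains mTOR. It averaged 9.58 ± 0.24 (SD, n = 2) in Fgf10+/- hyperoxia and 11.57 ± 0.79 (n = 4) in Fgf10+/- normoxia and fell by 1.99 ± 0.48 (SE; limma with Benjamini-Hochberg adjustment, adjusted p = 0.0412), a call kept in 1 of the 6 fits that left out 1 library. Rictor, a subunit of the second mTOR complex, and Sesn3, the remaining sestrin, fell in the mean effect by 0.58 and 0.65, calls kept in 10 and 4 of the 16 fits without 1 library. Phlda3 had a change of 2.04 in the mean effect, where the median of the 19 pathway genes was -0.14.

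**Figure D5:**
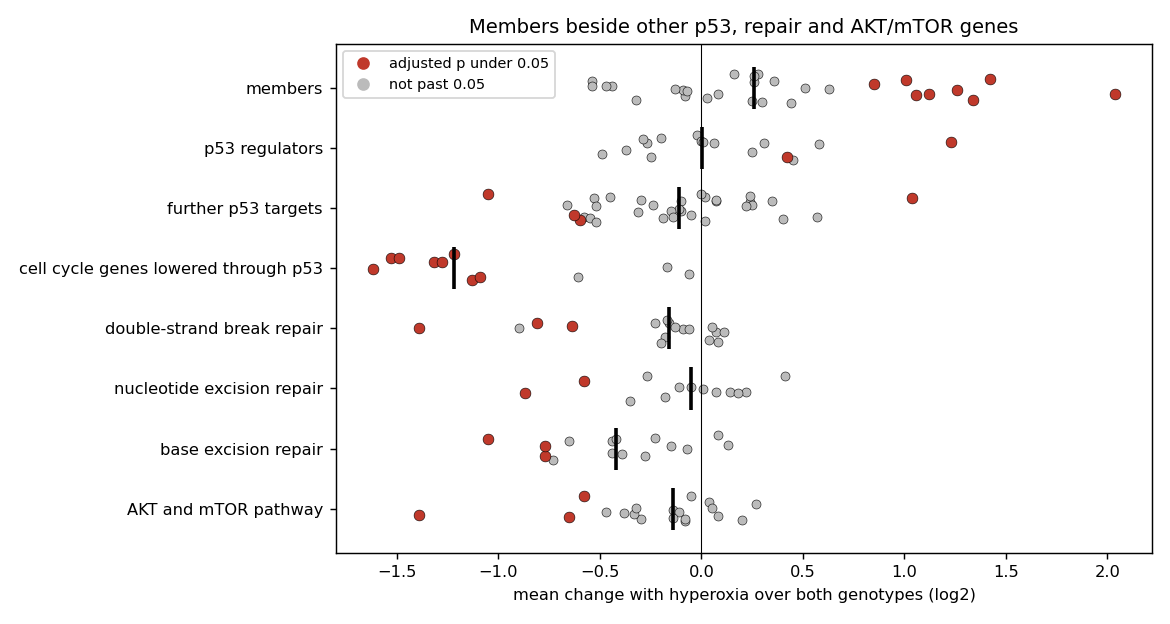
Mean change with hyperoxia over both genotypes (log2, x axis) of the 29 genes (top row, labelled members) and of 7 surrounding lists. Each point is a gene, black bars are medians, and red marks an adjusted p under 0.05. The 8 red points of the top row lie right of 0, while the red points of the cell cycle, repair and AKT and mTOR rows lie left of it.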

How the data were processed

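RNA of 16 samples of AT2 cells was labelled with Cy3 by a single-colour kit and hybridised to 1 array each, per the labels' protocols. The deposited table holds 1 value per feature and array, read here as log2 because it runs from -0.4 to 15.98. The sorted values of the 16 arrays differ by at most 0.2, so the authors' values were normalised between arrays. Not given in the sources used here are the software, the background correction, the log base and how the cells were isolated. No detection flags, slides or scan labels were used, and the number of arrays limits the precision.

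Of 62976 features, 65 with missing values were left out. Features with 1 symbol in the platform annotation, which is old, were renamed through RefSeq GRCm38.p6, 29036 by accession, 2075 by symbol and 349 by synonym. The brightest feature stood for each of 20725 genes. Groups came from the sample labels. A limma fit (3.58.1, R 4.3.3) of 4 group means over all 16 samples gave each contrast, with Benjamini-Hochberg adjustment over all genes and calls at an adjusted p under 0.05. The fit was tested on simulated data.

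The genes and lists were chosen with earlier results of these data known, and the thymocyte list was first written after the data had been seen. By the naming rule, levels are given for members called in any comparison and the 3 with the smallest p in each. Those of Cdkn1a, Mdm2, Gdf15, Fas and Bbc3 are always given. The 6 wild-type hyperoxia samples are given as lowest, median and highest, and the other groups sample by sample. Of the other lists at most the 3 called genes with the smallest p per comparison are named. The levels given for Psrc1, Xpc, Sesn2 and Perp, and the dim feature of Cdkn1a, were picked after their values were seen. Trp53, Bax and Fdxr were not analysed here. The alternatives were other summaries of features, a filter on dim features, centring, variance settings, array weights, covariates, a replicate block and leaving out each sample. Promoter windows of 250 bases before to 50 after each start came from RefSeq GRCm38.p6.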

Additional observations from a re-analysis of the deposited data

Results flagged for a closer look

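A sample stood far from the other samples of its group, by Dixon's test, in 10 of the 162 gene and group combinations tested, 5 of them in the 29 genes. Chance flags about 1 in 20. Among the 29 genes, Phlda3 was at 7.99 in wild-type normoxia replicate 4, where the other 3 samples were between 9.01 and 9.19. Ercc5 was at 4.98 in Fgf10+/- normoxia replicate 1, against 5.38 to 5.39 in the others. Sesn1 was at 6.29 in Fgf10+/- normoxia replicate 3, against 6.92 to 6.97, and Sesn2 at 9.39 in Fgf10+/- normoxia replicate 2, against 8.71 to 8.79. Rrm2b was at 3.19 in wild-type normoxia replicate 1, against 4.20 to 4.39, at levels below or near the median of all values.

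In the surrounding lists, Cd82 was at 12.46 in Fgf10+/- normoxia replicate 1 (others 12.22 to 12.26), Tap1 at 4.22 in wild-type normoxia replicate 3 (others 5.45 to 5.67) and Gadd45g at 11.55 in wild-type normoxia replicate 4 (others 12.04 to 12.10). Foxm1 was at 4.18 in wild-type hyperoxia replicate 4 (others 4.82 to 5.07), and Ccna2 at 7.83 in wild-type hyperoxia replicate 5 (others 6.13 to 6.62).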

How the results depend on the processing

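In wild type the 4 genes called became 8 without dim features, 7 with trended and robust variances and 8 with arrays centred on the median of the genes tested, and 3 to 7 when 1 library was left out. In Fgf10+/- the 5 called became 2 when only the groups compared were fitted, 2 with thymocyte markers as a covariate, 0 without the 4 libraries high in thymocyte markers, and 0 to 4 when 1 library was left out. In the mean effect the 8 became 4 without those 4 libraries and 7 to 9 when 1 library was left out. Between the genotypes in normoxia 1 gene, Gdf15, was called without dim features, with trended and robust variances and with array weights. It was called in 0 of the 8 fits that left out 1 library. Centring on the genes tested, the fit over every feature and leaving out the 4 libraries were chosen after seeing the data.

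With the replicate number as a block, the counts were 0 in wild type, 0 in Fgf10+/- and 1 in the mean effect. These fits used only the groups compared and only replicate numbers present in each of them, so arrays were dropped. In Fgf10+/- and in the mean effect each group was cut to 2 samples, the number in Fgf10+/- hyperoxia. The reduced sets of arrays were not also fitted without the block. The parts of the block and of the dropped arrays in the loss of calls were not tested. The labels do not say whether samples of equal number form pairs. Over 18 pairs of equal number the correlations of deviations ran from -0.16 to 0.24. Of these, 4 were over 0.1, and 8 pairs correlated best with their own number. These values do not settle whether equal numbers pair the samples.

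Values that turned sign were near 0 and never called. For Cdkn1a they were -0.19 in Fgf10+/- with the thymocyte covariate and -0.03 without the 4 libraries, and in the mean effect 0.05 for the mean of all features and 0.02 with the other centring. For Bbc3 they were 0.04 with array weights and 0.05 with the other centring in Fgf10+/-, and -0.08 with the covariate and -0.11 without the 4 libraries in the mean effect. Leaving out 1 library gave Bbc3 values of -0.00 to 0.21 in wild type, -0.15 to 0.04 in Fgf10+/- and -0.03 to 0.08 in the mean effect.

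Among all genes, 649 were called in wild type, against 1094 without dim features, 1000 with trended and robust variances, 1 with the block, 423 with the covariate, 278 without the 4 libraries and 323 to 679 with 1 library left out. In Fgf10+/- it was 507, against 332 for the mean of features, 816 without dim features, 261 with only the groups compared, 190 with the block, 115 with the covariate, 14 without the 4 libraries and 90 to 503. In the mean effect it was 2302, against 332, 854 and 467 with the block, the covariate and without the 4 libraries, and 1179 to 2341. The other centring moved the median of all genes to 0.03 in wild type, 0.06 in Fgf10+/- and 0.04 in the mean effect. The higher and lower calls were then 509 and 161 in wild type, 270 and 167 in Fgf10+/- and 1450 and 803 in the mean effect, against 367 and 282, 245 and 262, and 1030 and 1272 as reported. Causes were not tested, and without detection flags the signal over background is unknown.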
